A study of Mus musculus with 12 samples.

Results

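A total of 41 genes of the cell division cycle were followed in the kidney of Alport mice, 23 assigned to mitosis and 18 to the G1/S transition and DNA replication. They were chosen by name and by the phase in which each is known to act, with no threshold on their values. Earlier results of these data were known when the lists were chosen. The counts set against all probe sets below are therefore not from lists chosen blind to the data. The array carried a matched probe set for 37 of them, 1 each, 21 in the mitosis list and 16 in the G1/S list, out of 22206 probe sets in all. Ccnb1, Foxm1, Mcm7 and Ccnd1 were not matched and were not analysed here.

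The 12 samples were whole kidney of mice aged 16 weeks, 3 in each of 4 groups. Wild type mice (genotype WT) received vehicle. The other 9 samples carried the same Alport genotype, COL4A5 nonsense (G5X) hemi, and received vehicle, losartan or metformin. Col4a5 encodes the alpha-5 chain of collagen IV, a protein of the glomerular basement membrane whose loss causes Alport syndrome, a progressive kidney disease. Losartan, which blocks the angiotensin II type 1 receptor, was given in drinking water at 125 µg/mL in weeks 6 to 11 and 250 µg/mL from week 12. Metformin, a biguanide used in diabetes, was given at 2.5 mg/mL and then 5 mg/mL over the same weeks. The labels run the later dose to week 20, which is past the stated age of 16 weeks, and they call losartan co-administered, while the sample titles name 1 drug for each group. The groups are named here by those titles. Wild type mice given a drug are not among these groups, so each drug was compared only within the Alport genotype. No label states that a group's samples came from separate mice, so the p-values measure only the spread between these samples.

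Most cells of the adult kidney are out of the cell cycle, and tubular cells can re-enter it after injury. Entry into S phase is set by cyclin E and E2F, and origins are licensed by Cdc6 and Cdt1, which load the MCM helicase. Replication then needs deoxynucleotides and the sliding clamp Pcna. Genes of the later part of the cycle, such as cyclin B, the Aurora and Polo kinases and the spindle motors, are switched on as cells pass through G2 into mitosis. E2F sites are the known promoter elements of many G1/S genes. A cell cycle homology region (CHR) near CCAAT boxes, which bind NF-Y, is known from many mitosis genes.

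Promoters of 8 members are printed as chosen examples of the letters at the starts of mitosis and G1/S genes. Each stretch runs from 120 bases before the annotated start to 30 bases after it, in RefSeq sequence of the mouse build GRCm38.p6, and all 8 genes lie on the minus strand. Capitals mark TTTGAA (CHR), CCAAT, and TTTCCCGC, TTTCGCGC, TTTGCCGC or TTTGGCGC (E2F forms), on either strand. The first 5 are mitosis genes, Mki67 (chr7:135716350-135716499), Ccnb2 (chr9:70421525-70421674), Kif23 (chr9:61946770-61946919), Cdc20 (chr4:118437314-118437463) and Top2a (chr11:99024160-99024309). The other 3 are G1/S genes, Mcm3 (chr1:20820283-20820432), Mcm6 (chr1:128359676-128359825) and Pcna (chr2:132253151-132253300). All 5 mitosis genes shown have TTTGAA, which not every mitosis gene had, as Bub1 and Cenpe had no match.
Mki67: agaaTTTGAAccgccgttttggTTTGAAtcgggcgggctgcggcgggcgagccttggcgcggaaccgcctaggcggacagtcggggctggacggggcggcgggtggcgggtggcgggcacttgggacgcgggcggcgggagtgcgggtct
Ccnb2: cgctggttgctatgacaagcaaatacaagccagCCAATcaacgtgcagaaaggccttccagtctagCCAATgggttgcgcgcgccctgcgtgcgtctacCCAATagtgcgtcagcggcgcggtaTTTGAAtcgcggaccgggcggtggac
Kif23: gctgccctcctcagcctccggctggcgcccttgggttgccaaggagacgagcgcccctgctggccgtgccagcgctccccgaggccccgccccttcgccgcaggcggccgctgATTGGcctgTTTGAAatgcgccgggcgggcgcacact
Cdc20: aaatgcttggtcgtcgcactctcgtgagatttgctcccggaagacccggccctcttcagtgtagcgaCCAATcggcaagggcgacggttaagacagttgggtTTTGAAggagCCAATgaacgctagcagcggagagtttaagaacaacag
Top2a: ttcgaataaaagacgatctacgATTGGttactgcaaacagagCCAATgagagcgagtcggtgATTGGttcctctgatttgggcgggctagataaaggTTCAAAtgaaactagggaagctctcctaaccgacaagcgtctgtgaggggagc
Mcm3: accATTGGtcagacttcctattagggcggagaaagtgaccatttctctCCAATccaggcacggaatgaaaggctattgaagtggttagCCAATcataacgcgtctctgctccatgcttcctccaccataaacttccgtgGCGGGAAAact
Mcm6: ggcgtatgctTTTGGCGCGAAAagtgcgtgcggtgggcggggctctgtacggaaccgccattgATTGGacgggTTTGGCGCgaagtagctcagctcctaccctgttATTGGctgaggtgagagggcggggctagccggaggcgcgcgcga
Pcna: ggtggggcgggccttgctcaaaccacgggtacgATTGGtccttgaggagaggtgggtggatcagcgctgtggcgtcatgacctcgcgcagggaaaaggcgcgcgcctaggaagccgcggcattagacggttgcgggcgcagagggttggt

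RefSeq promoters of 300 bases were on hand for 30 of the 37 measured members, 17 mitosis and 13 G1/S genes. Members were counted by gene, with a match in any promoter of the gene (18 promoters in the mitosis and 14 in the G1/S list). The share of all promoters was counted by promoter, 32851 for 27025 genes, so the units differ. TTTGAA occurred in 13 of the 17 mitosis genes (76.5%) and in 1 of the 13 G1/S genes (7.69%), Mcm2, against 17.9% of all 32851 promoters. CCAAT occurred in 15 mitosis genes (88.2%) and 8 G1/S genes (61.5%), against 37.4% of all promoters. An E2F form occurred in 6 G1/S genes (46.2%), which were Cdc6, Cdt1, Mcm3, Mcm5, Mcm6 and Uhrf1, and in 1 mitosis gene (5.88%), Cdk1, against 2.26% of all promoters. Overlapping E2F forms were each counted as a match, as in Mcm6, where neighbouring forms on opposite strands share bases. Pcna had CCAAT and no E2F form in the window. A match is a run of letters and not a measured binding site, and these arrays carried no measure of binding.

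The deposited values were log2 signals between 2.30 and 19.88 with medians of 5.88 to 6.07 per sample. Samples of 1 group correlated at r of 0.990 to 0.994 over all probe sets, and samples of different groups at 0.975 to 0.993. Kidney markers (Slc34a1, Lrp2 and Umod of tubules, Nphs1 of podocytes) were well above the lower quartile in all 12 samples, with none of them dim. A log2 level below the lower quartile of the samples (4.18 to 4.25) is called dim here, and no fold is given for a gene whose mean in a compared group was below 4.18, because the level there is uncertain. In wild type kidney 6 of the 21 mitosis genes and 2 of the 16 G1/S genes had such a mean. These were Cdk1, Cdc20, Bub1, Bub1b, Cenpf and Tpx2 in the mitosis list, and Cdc6 and E2f1 in the G1/S list. The same genes had such a mean with losartan. Tpx2 also had one with metformin, and E2f1 in Alport vehicle. The sizes of their changes in comparisons with those groups are uncertain. Levels of different genes are read by different probes and are not compared.

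Cell cycle genes were higher in Alport than in wild type kidney, both treated with vehicle. A gene was called where the adjusted p of limma with Benjamini-Hochberg adjustment over all probe sets was under 0.05. Of the 21 mitosis genes 20 rose and none fell, with a median log2 change of 1.69 over the list. Of the 16 G1/S genes 10 rose and none fell, with a median of 0.85. Over all probe sets 16.1% were called (8.43% higher) and the median change was -0.03. The samples of the groups did not overlap in 20 mitosis and 12 G1/S genes, against 14.2% of all probe sets with all 3 Alport samples above the 3 wild type samples. The members with overlapping samples were Cenpf, Tyms, Cdc6, Cdt1 and Gins2.

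**Figure D1:**
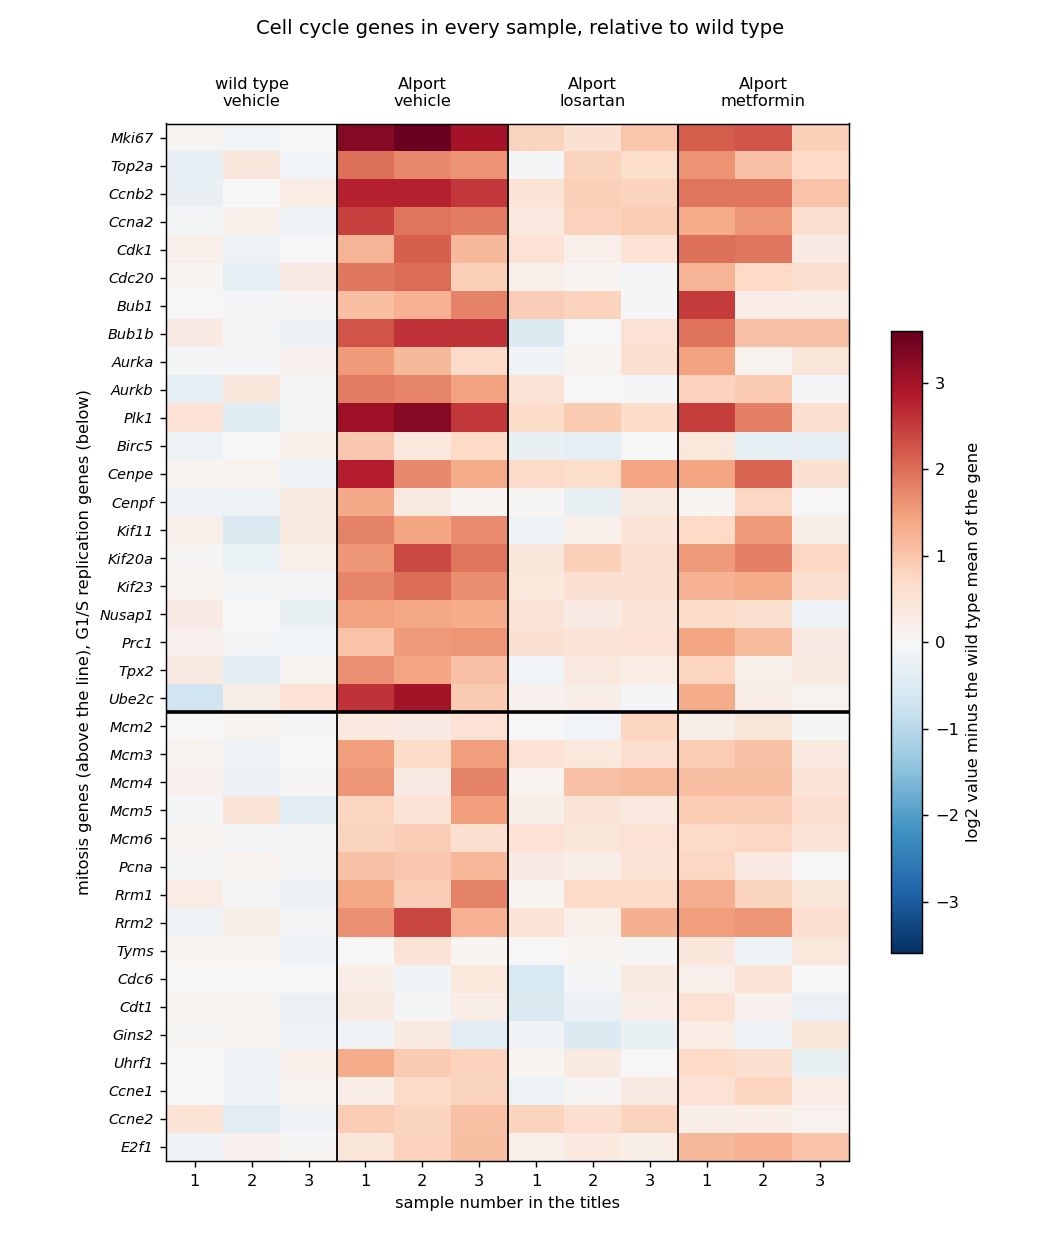
Heat map of the 37 measured members (rows, mitosis genes above the thick line and G1/S genes below it) in the 12 samples (columns), coloured by log2 value minus the gene's wild type mean. The vehicle-treated Alport columns are the reddest, and the third metformin column is paler than the other metformin columns in most rows.

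Mki67 encodes Ki-67, a chromosome surface protein present in cycling cells. Mki67 had log2 values of 6.39, 6.21 and 6.31 in wild type, 9.61, 9.85 and 9.29 in Alport vehicle, 7.10, 6.86 and 7.29 in losartan and 8.48, 8.58 and 7.17 in metformin samples, with samples 1, 2 and 3 of each group in that order. All 3 vehicle-treated Alport samples lay above every other sample. The rise from wild type was 3.28 ± 0.29 (SE) on the log2 scale, 9.71-fold, with an adjusted p of 2.06e-06.

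The mitotic cyclins and their kinase rose together, 3 of 3 measured. Ccnb2 encodes cyclin B2, which activates Cdk1 at mitotic entry. Ccnb2 had log2 values of 5.26, 5.51 and 5.80 in wild type, 8.28, 8.28 and 8.06 in Alport vehicle, 6.01, 6.39 and 6.33 in losartan and 7.45, 7.44 and 6.54 in metformin samples. Every Alport vehicle sample was above every sample of the other groups, and the change from wild type was 2.68 ± 0.23 (6.42-fold, adjusted p 1.83e-06), the smallest p among the mitosis genes. Ccna2, cyclin A2, is used in S phase and at mitotic entry. Ccna2 had log2 values of 4.31, 4.54 and 4.19 in wild type, 6.81, 6.27 and 6.19 in Alport vehicle, 4.71, 5.17 and 5.27 in losartan and 5.69, 5.94 and 4.92 in metformin samples. It rose by 2.08 ± 0.25 (4.22-fold, adjusted p 3.67e-05). Cdk1, the kinase that drives entry into mitosis, was dim in wild type kidney. Cdk1 had log2 values of 2.97, 2.60 and 2.82 in wild type, 4.03, 4.96 and 3.97 in Alport vehicle, 3.31, 2.99 and 3.33 in losartan and 4.77, 4.71 and 3.09 in metformin samples. Metformin samples 1 and 2 were as high as the Alport vehicle samples and metformin sample 3 lay within the losartan range. Cdk1 rose by 1.52 ± 0.36 in Alport against wild type kidney (adjusted p 0.00698).

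The spindle checkpoint and the anaphase-promoting complex, which hold and then release chromosome separation, rose in 4 of 4 genes. Bub1b encodes the checkpoint kinase BubR1. Bub1b had log2 values of 4.34, 3.97 and 3.83 in wild type, 6.32, 6.65 and 6.65 in Alport vehicle, 3.55, 4.02 and 4.57 in losartan and 6.0, 5.11 and 5.09 in metformin samples. The wild type and the losartan samples overlapped, the Alport vehicle samples were the highest, and the rise from wild type was 2.49 ± 0.27 (adjusted p 1.46e-05). Bub1, another checkpoint kinase, was dim in wild type kidney. Bub1 had log2 values of 3.52, 3.49 and 3.56 in wild type, 4.60, 4.77 and 5.31 in Alport vehicle, 4.40, 4.33 and 3.49 in losartan and 6.03, 3.75 and 3.75 in metformin samples. Metformin sample 1 had the highest level of all 12 and the other two metformin samples were near wild type. The Bub1 call, 1.37 ± 0.44 with an adjusted p of 0.0449, was lost when any 1 wild type or Alport vehicle sample, or losartan sample 1 or 2, was left out, with adjusted p up to 0.155 without Alport vehicle sample 3. It was also lost with each sample centred on its median (0.0569), with trended and robust variances (0.118) and with array weights (0.0694). Cdc20, the activator of the complex at anaphase, was at 3.56, 3.12 and 3.77 in wild type, 5.38, 5.49 and 4.34 in Alport vehicle, 3.67, 3.56 and 3.41 in losartan and 4.70, 4.21 and 4.07 in metformin samples. It rose by 1.59 ± 0.27 (adjusted p 0.000649) from a dim wild type level. Ube2c, the ubiquitin-conjugating enzyme of the complex, read 4.27, 5.21 and 5.50 in wild type, 7.60, 8.0 and 5.94 in Alport vehicle, 5.14, 5.24 and 4.95 in losartan and 6.33, 5.23 and 5.12 in metformin samples. It rose by 2.19 ± 0.44 (4.55-fold, adjusted p 0.00233), and Alport vehicle sample 3 was well below the other two.

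Among the mitotic kinases and the chromosomal passenger complex, 4 of 4 genes rose. Plk1, Polo-like kinase 1, acts in centrosome maturation and spindle assembly. Plk1 had log2 values of 5.84, 4.89 and 5.25 in wild type, 8.38, 8.60 and 7.87 in Alport vehicle, 5.99, 6.27 and 6.0 in losartan and 7.81, 7.14 and 5.89 in metformin samples. It rose by 2.96 ± 0.36 (7.76-fold, adjusted p 4.21e-05). Aurkb, the kinase of the passenger complex, stood at 4.36, 5.12 and 4.65 in wild type, 6.56, 6.47 and 6.17 in Alport vehicle, 5.21, 4.73 and 4.68 in losartan and 5.54, 5.65 and 4.68 in metformin samples. It rose by 1.69 ± 0.26 (3.23-fold, adjusted p 0.000251). Aurka, the centrosomal Aurora kinase, was at 4.61, 4.63 and 4.84 in wild type, 6.24, 5.85 and 5.37 in Alport vehicle, 4.58, 4.80 and 5.31 in losartan and 6.13, 4.83 and 5.12 in metformin samples. It rose by 1.13 ± 0.29 (adjusted p 0.0144), a call that was lost without wild type sample 1 (adjusted p 0.0515) or Alport vehicle sample 1 (adjusted p 0.079). Birc5, survivin, a passenger subunit, showed the smallest change of the 4. Birc5 had log2 values of 4.85, 5.04 and 5.20 in wild type, 5.99, 5.42 and 5.74 in Alport vehicle, 4.77, 4.69 and 5.03 in losartan and 5.41, 4.70 and 4.74 in metformin samples. It rose by 0.69 ± 0.21 (adjusted p 0.0353), and the call was lost without wild type sample 1 (0.131), wild type sample 2 (0.0802), Alport vehicle sample 1 (0.148) or Alport vehicle sample 3 (0.085). It was also lost with each sample centred on its median (0.0712) and after a new quantile normalization (0.0611).

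Kinetochore, spindle and cytokinesis genes rose in 8 of 9. Kif23 encodes a kinesin of the central spindle that is needed for cytokinesis. Kif23 had log2 values of 6.47, 6.32 and 6.27 in wild type, 8.11, 8.36 and 8.02 in Alport vehicle, 6.74, 6.90 and 6.90 in losartan and 7.61, 7.68 and 6.94 in metformin samples. The Alport vehicle samples were the highest, and the rise was 1.81 ± 0.19 (3.51-fold, adjusted p 1.36e-05). Top2a, the topoisomerase that untangles sister chromatids, read 5.08, 5.77 and 5.26 in wild type, 7.35, 7.11 and 6.99 in Alport vehicle, 5.32, 6.18 and 5.99 in losartan and 6.98, 6.42 and 6.08 in metformin samples. It rose by 1.78 ± 0.26 (3.43-fold, adjusted p 0.000176), and the highest metformin sample was just under the lowest Alport vehicle sample. Kif20a, a kinesin of cytokinesis, read 4.43, 4.17 and 4.59 in wild type, 5.96, 6.76 and 6.31 in Alport vehicle, 4.81, 5.26 and 4.98 in losartan and 5.94, 6.21 and 5.14 in metformin samples. It rose by 1.95 ± 0.26 (3.85-fold, adjusted p 8.16e-05). Kif11, the motor that separates the spindle poles, was at 5.85, 5.16 and 6.01 in wild type, 7.46, 7.09 and 7.38 in Alport vehicle, 5.53, 5.87 and 6.13 in losartan and 6.40, 7.20 and 5.88 in metformin samples. It rose by 1.64 ± 0.29 (3.11-fold, adjusted p 0.000906).

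Nusap1 and Prc1, which bind and bundle spindle microtubules, changed by like amounts. Nusap1 was at 7.17, 6.87 and 6.61 in wild type, 8.33, 8.27 and 8.22 in Alport vehicle, 7.36, 7.19 and 7.34 in losartan and 7.54, 7.47 and 6.71 in metformin samples, and Prc1 at 4.84, 4.64 and 4.60 in wild type, 5.72, 6.24 and 6.28 in Alport vehicle, 5.24, 5.16 and 5.21 in losartan and 6.11, 5.83 and 5.0 in metformin samples. Nusap1 rose by 1.39 ± 0.21 (2.62-fold, adjusted p 0.000254) and Prc1 by 1.39 ± 0.24 (2.61-fold, adjusted p 0.000711), with no overlap between wild type and Alport vehicle samples in either. Tpx2, the activator of Aurora A, read 3.91, 3.19 and 3.66 in wild type, 5.24, 5.02 and 4.65 in Alport vehicle, 3.48, 3.94 and 3.85 in losartan and 4.37, 3.76 and 3.91 in metformin samples. It rose by 1.38 ± 0.23 (adjusted p 0.000482) from a dim wild type level. Cenpe, a kinetochore motor, had a wide spread in every Alport group. Cenpe had log2 values of 4.32, 4.36 and 4.05 in wild type, 7.08, 5.96 and 5.58 in Alport vehicle, 4.94, 4.87 and 5.65 in losartan and 5.67, 6.33 and 4.78 in metformin samples. It rose by 1.96 ± 0.37 (3.90-fold, adjusted p 0.00153). Cenpf, a kinetochore protein, was the mitosis gene that was not called. Cenpf had log2 values of 3.95, 3.92 and 4.40 in wild type, 5.45, 4.41 and 4.18 in Alport vehicle, 4.12, 3.83 and 4.41 in losartan and 4.15, 4.83 and 4.09 in metformin samples. Only Alport vehicle sample 1 was above the wild type samples by more than their range, and the difference was 0.59 ± 0.29 (adjusted p 0.202).

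In the G1/S list 10 of 16 genes rose, and the difference between the lists was not tested. Nucleotide supply and fork genes rose in 4 of 5. Pcna, the sliding clamp of DNA polymerases, had the smallest p of the list. Pcna had log2 values of 12.49, 12.69 and 12.53 in wild type, 13.62, 13.55 and 13.77 in Alport vehicle, 12.87, 12.80 and 13.06 in losartan and 13.31, 12.86 and 12.57 in metformin samples. The Alport vehicle samples were all above the others, and the rise was 1.08 ± 0.19 (2.11-fold, adjusted p 0.000739). Rrm2, the regulated subunit of ribonucleotide reductase, read 5.35, 5.67 and 5.39 in wild type, 7.11, 7.88 and 6.73 in Alport vehicle, 5.97, 5.66 and 6.76 in losartan and 6.97, 7.06 and 6.08 in metformin samples. It rose by 1.77 ± 0.32 (3.41-fold, adjusted p 0.00105), the largest change of the G1/S genes. Rrm1, the large subunit of the same enzyme, was at 7.90, 7.61 and 7.42 in wild type, 9.03, 8.53 and 9.43 in Alport vehicle, 7.75, 8.32 and 8.31 in losartan and 8.95, 8.44 and 8.07 in metformin samples. It rose by 1.35 ± 0.26 (2.56-fold, adjusted p 0.00158). Uhrf1, which helps copy DNA methylation at the fork, read 6.21, 6.06 and 6.41 in wild type, 7.55, 7.18 and 7.07 in Alport vehicle, 6.29, 6.55 and 6.23 in losartan and 6.94, 6.79 and 5.96 in metformin samples. It rose by 1.04 ± 0.23 (2.06-fold, adjusted p 0.00486). Tyms, thymidylate synthase, showed no separation of the groups. Tyms had log2 values of 8.22, 8.22 and 7.97 in wild type, 8.13, 8.63 and 8.20 in Alport vehicle, 8.12, 8.22 and 8.18 in losartan and 8.54, 7.99 and 8.53 in metformin samples. Its difference was 0.18 ± 0.19 (adjusted p 0.597).

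Of the 8 measured licensing and helicase genes 4 rose, all of them subunits of the MCM helicase. Mcm3 was at 5.84, 5.60 and 5.71 in wild type, 7.21, 6.39 and 7.21 in Alport vehicle, 6.25, 6.09 and 6.31 in losartan and 6.64, 6.78 and 6.06 in metformin samples. It rose by 1.22 ± 0.23 (2.33-fold, adjusted p 0.00145). Mcm6 read 9.23, 9.07 and 9.09 in wild type, 9.93, 10.01 and 9.70 in Alport vehicle, 9.66, 9.56 and 9.64 in losartan and 9.81, 9.88 and 9.60 in metformin samples. It rose by 0.75 ± 0.16 (1.68-fold, adjusted p 0.00306), and all 9 Alport samples, treated or not, were above the 3 wild type samples. Mcm4 was uneven among the Alport vehicle samples, with sample 2 near wild type. Mcm4 had log2 values of 6.19, 5.81 and 6.07 in wild type, 7.61, 6.31 and 7.80 in Alport vehicle, 6.15, 7.09 and 7.15 in losartan and 7.11, 7.11 and 6.48 in metformin samples. Its change of 1.22 ± 0.34 (adjusted p 0.0205) was not called without wild type sample 2 (0.0761), wild type sample 3 (0.0534), Alport vehicle sample 1 (0.0954) or Alport vehicle sample 3 (0.104). Mcm5 read 4.93, 5.46 and 4.60 in wild type, 5.76, 5.48 and 6.49 in Alport vehicle, 5.22, 5.47 and 5.36 in losartan and 5.92, 5.88 and 5.60 in metformin samples. Its change of 0.91 ± 0.25 (1.88-fold, adjusted p 0.018) was not called without wild type sample 1 (0.0604), wild type sample 3 (0.097) or Alport vehicle sample 3 (0.0959).

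The other licensing genes did not pass the test. Mcm2 read 7.73, 7.85 and 7.68 in wild type, 8.11, 8.06 and 8.28 in Alport vehicle, 7.75, 7.66 and 8.53 in losartan and 7.96, 8.18 and 7.71 in metformin samples. Its Alport vehicle samples were above all wild type samples, yet the difference of 0.40 ± 0.21 had an adjusted p of 0.244. Cdc6, the licensing ATPase, had mean levels below 4.18 in the wild type and losartan groups. Cdc6 had log2 values of 4.16, 4.16 and 4.15 in wild type, 4.39, 4.0 and 4.55 in Alport vehicle, 3.61, 4.09 and 4.47 in losartan and 4.35, 4.66 and 4.17 in metformin samples. Its difference was 0.16 ± 0.22 (adjusted p 0.713). Cdt1, its partner in MCM loading, was at 7.06, 7.01 and 6.73 in wild type, 7.25, 6.85 and 7.16 in Alport vehicle, 6.41, 6.71 and 7.18 in losartan and 7.45, 7.10 and 6.71 in metformin samples. Gins2, a subunit of the active helicase, read 4.91, 4.98 and 4.72 in wild type, 4.74, 5.18 and 4.50 in Alport vehicle, 4.74, 4.37 and 4.59 in losartan and 5.14, 4.72 and 5.30 in metformin samples. In both genes wild type and Alport samples overlapped, with differences of 0.15 ± 0.22 (adjusted p 0.73) and -0.06 ± 0.20 (adjusted p 0.89). A p above the threshold does not show that these genes were equal in both genotypes, and the 95% interval for Gins2 ran from -0.49 to 0.37.

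G1 cyclins and E2F were called in 2 of 3. E2f1, a transcription factor of S phase genes, was dim in wild type kidney. E2f1 had log2 values of 3.06, 3.41 and 3.28 in wild type, 3.69, 4.07 and 4.32 in Alport vehicle, 3.42, 3.59 and 3.49 in losartan and 4.41, 4.51 and 4.29 in metformin samples. Metformin samples 1 and 2 were the highest of all 12, and the rise from wild type to Alport vehicle was 0.78 ± 0.18 (adjusted p 0.00638). Ccne2, cyclin E2, which activates Cdk2 at the G1/S transition, read 5.67, 4.81 and 5.06 in wild type, 6.10, 5.98 and 6.24 in Alport vehicle, 5.98, 5.78 and 5.99 in losartan and 5.41, 5.42 and 5.31 in metformin samples. It rose by 0.93 ± 0.20 (1.90-fold, adjusted p 0.00356), and its metformin samples lay inside the wild type range. Ccne1, cyclin E1, stood at 5.29, 5.13 and 5.40 in wild type, 5.52, 5.97 and 6.07 in Alport vehicle, 5.10, 5.31 and 5.57 in losartan and 5.80, 6.06 and 5.53 in metformin samples. Its Alport vehicle samples were above all wild type samples, but the difference of 0.58 ± 0.20 missed the threshold (adjusted p 0.0557).

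**Figure D2:**
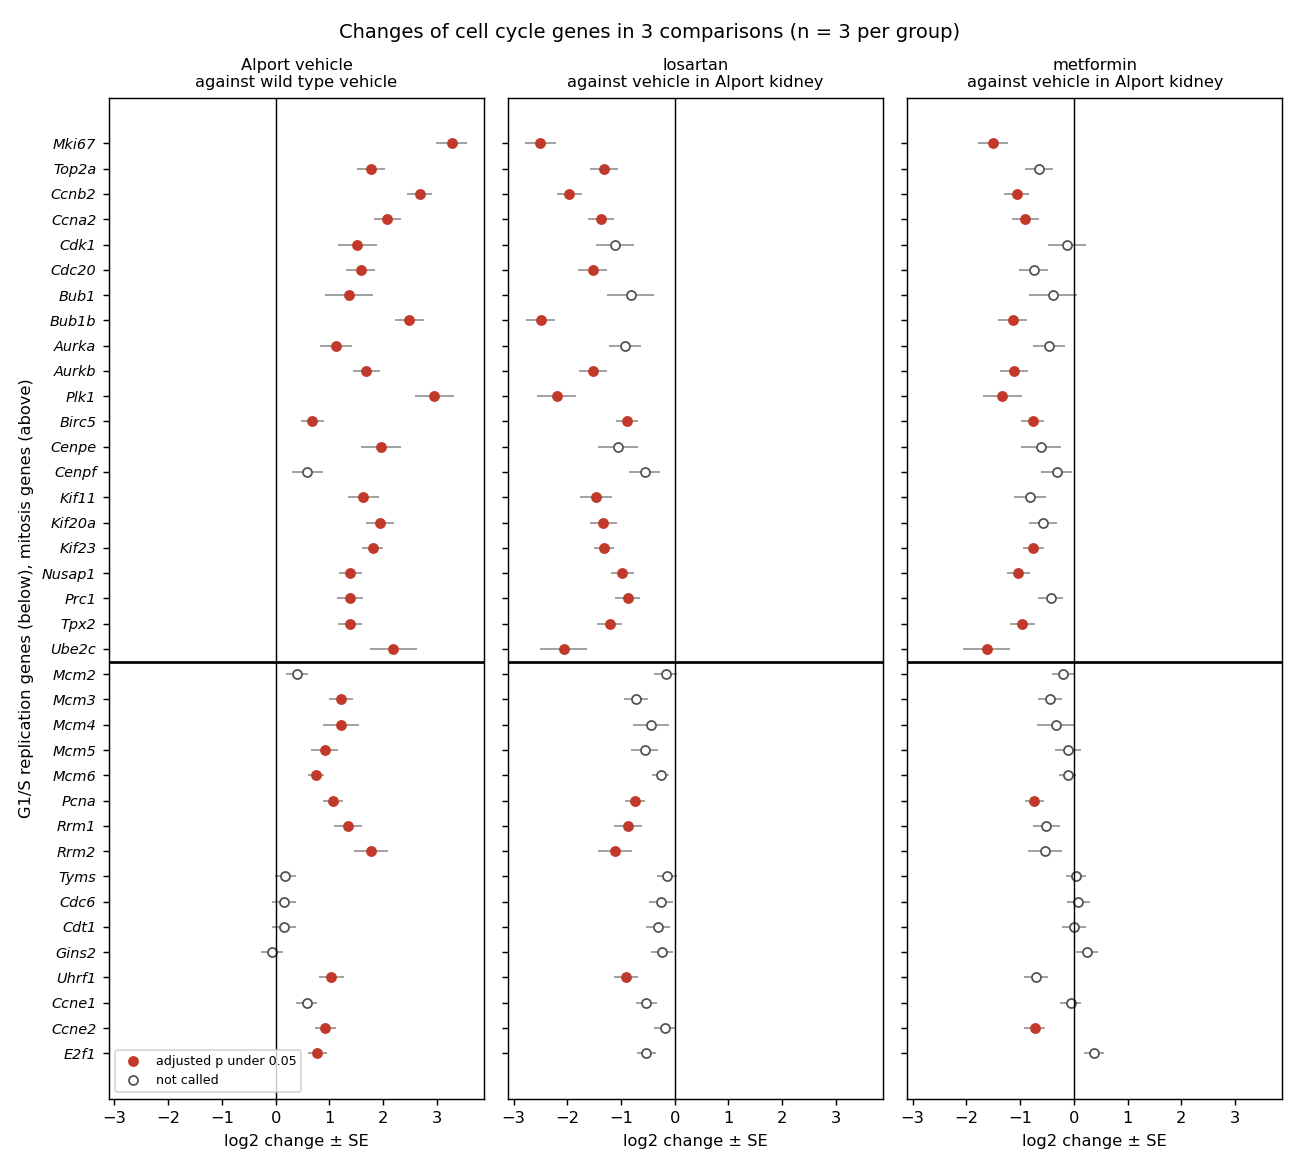
Log2 changes with standard errors (n = 3 samples a group) of the 37 measured members in 3 comparisons, filled where the adjusted p was under 0.05, on a shared horizontal axis. Filled points cover 20 mitosis and 10 G1/S genes for Alport against wild type, 16 and 4 for losartan against vehicle, and 11 and 2 for metformin against vehicle.

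In Alport kidney most mitosis genes were lower with losartan than with vehicle. Of the 21 mitosis genes 16 fell and none rose, with a median log2 change of -1.32, while 4 of the 16 G1/S genes fell and none rose, with a median of -0.49. Over all probe sets 7.9% were called (4.11% lower, 3.79% higher) and the median change was 0.01. The losartan samples were all below the Alport vehicle samples in 19 mitosis and 7 G1/S genes, against 11.3% of all probe sets. This comparison and the one against wild type share the Alport vehicle samples.

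Mki67 fell by 2.50 ± 0.29 on the log2 scale (5.66-fold, adjusted p 0.000254), and the highest losartan sample, 7.29, was far under the lowest vehicle sample, 9.29. Bub1b changed by -2.49 ± 0.27 (adjusted p 0.000254), to a losartan mean of 4.05 ± 0.51 (SD, n = 3), which is below 4.18, so the size of this change is uncertain. Ccnb2, whose promoter is printed above with 1 CHR and 3 CCAAT letters in capitals, changed by -1.96 ± 0.23 (3.90-fold, adjusted p 0.000307). Plk1 changed by -2.20 ± 0.36 (4.58-fold, adjusted p 0.00207) and Kif23 by -1.32 ± 0.19 (2.49-fold, adjusted p 0.000987).

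Of the other mitosis genes that fell with losartan, Ube2c changed by -2.07 ± 0.44 (adjusted p 0.009), not called without Alport vehicle sample 1 (0.0536), and Cdc20 by -1.52 ± 0.27 (adjusted p 0.00318). Aurkb changed by -1.53 ± 0.26 (adjusted p 0.00235). Among the spindle motors Kif11 changed by -1.47 ± 0.29 (adjusted p 0.0063) and Kif20a by -1.33 ± 0.26 (adjusted p 0.00569). Ccna2 changed by -1.37 ± 0.25 (adjusted p 0.00388), Top2a by -1.32 ± 0.26 (adjusted p 0.00602) and Tpx2 by -1.21 ± 0.23 (adjusted p 0.0045). The losartan means of Cdc20 and Tpx2, 3.55 and 3.76, were below 4.18, so the sizes of their changes are uncertain. The smallest called changes were those of Nusap1 at -0.98 ± 0.21 (adjusted p 0.0103), Birc5 at -0.89 ± 0.21 (adjusted p 0.0171) and Prc1 at -0.88 ± 0.24 (adjusted p 0.0332). These last calls were lost without losartan sample 2, with adjusted p of 0.0524 for Nusap1, 0.0816 for Birc5 and 0.109 for Prc1. Birc5 was also lost without Alport vehicle sample 1 (0.0903), and Prc1 without Alport vehicle sample 2 (0.0823) or 3 (0.109) or losartan sample 1 (0.0667) or 3 (0.0871). Prc1 was also lost after a new quantile normalization (0.0544).

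The 5 mitosis genes not called with losartan were all lower on average. Cdk1 differed by -1.11 ± 0.36 (adjusted p 0.0696) and Aurka by -0.92 ± 0.29 (adjusted p 0.0688), and in both the losartan samples were below all vehicle samples. Bub1 was also without overlap, at -0.82 ± 0.44 (adjusted p 0.325). Cenpe differed by -1.05 ± 0.37 (adjusted p 0.101) and Cenpf by -0.56 ± 0.29 (adjusted p 0.301), both with overlapping samples.

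In the G1/S list the genes that fell with losartan were the nucleotide and fork genes Pcna, Uhrf1, Rrm2 and Rrm1. Pcna changed by -0.74 ± 0.19 (1.67-fold, adjusted p 0.0226) and Uhrf1 by -0.91 ± 0.23 (1.88-fold, adjusted p 0.0227). Rrm2 changed by -1.11 ± 0.32 (2.16-fold, adjusted p 0.0428), although losartan sample 3, at 6.76, was above Alport vehicle sample 3, at 6.73. Rrm1 changed by -0.87 ± 0.26 (1.83-fold, adjusted p 0.0489). None of the 8 measured licensing and helicase genes was called, and their differences ran from -0.72 for Mcm3 (adjusted p 0.0678) to -0.17 for Mcm2 (adjusted p 0.733). E2f1 differed by -0.53 ± 0.18 (adjusted p 0.0886), Ccne1 by -0.53 ± 0.20 (adjusted p 0.123) and Ccne2 by -0.19 ± 0.20 (adjusted p 0.667). The count of 4 became 2 without any 1 wild type sample, Alport vehicle sample 3 or losartan sample 3, 1 without Alport vehicle sample 1 or losartan sample 2, and 0 without losartan sample 1. Without Alport vehicle sample 1 none of the 4 named genes was called, and the 1 counted was another gene of the list. The adjusted p was then 0.0689 for Pcna, 0.137 for Rrm1, 0.0966 for Rrm2 and 0.112 for Uhrf1. The highest adjusted p over these exclusions was 0.0981 for Pcna and 0.199 for Rrm2 (both without losartan sample 2), 0.188 for Rrm1 (without Alport vehicle sample 3) and 0.112 for Uhrf1 (without Alport vehicle sample 1). With all samples kept, Rrm1 was lost with array weights (0.0666), and Rrm2 after a new quantile normalization (0.0688). Both were lost with centring (0.0634 for Rrm1 and 0.0583 for Rrm2), in a fit of these 2 groups alone (0.064 and 0.0655) and with the replicate number as a block (0.0716 and 0.0564).

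With metformin 13 members were called as lower than with vehicle, and this number depended on single samples. Of the 21 mitosis genes 11 fell and none rose, with a median log2 change of -0.77, and 2 of the 16 G1/S genes fell and none rose, with a median of -0.16. Over all probe sets 4.94% were called (2.27% lower) and the median change was -0.01. The metformin samples were all below the Alport vehicle samples in 11 mitosis and 3 G1/S genes, against 9.88% of all probe sets. The vehicle samples are those used for losartan, so the 2 drug comparisons are not independent.

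Mki67 fell by 1.51 ± 0.29 on the log2 scale with metformin (2.84-fold, adjusted p 0.00801). Metformin samples 1 and 2, at 8.48 and 8.58, were nearer the vehicle samples than sample 3, at 7.17. Ccnb2 changed by -1.06 ± 0.23 (2.09-fold, adjusted p 0.0155), Nusap1 by -1.03 ± 0.21 (adjusted p 0.0117) and Aurkb by -1.11 ± 0.26 (adjusted p 0.0212). Bub1b changed by -1.14 ± 0.27 (adjusted p 0.0234), Tpx2 by -0.96 ± 0.23 (adjusted p 0.0237) and Kif23 by -0.75 ± 0.19 (adjusted p 0.0359). Plk1, whose metformin samples spread from 5.89 to 7.81, changed by -1.34 ± 0.36 (adjusted p 0.045). Ube2c changed by -1.62 ± 0.44 (adjusted p 0.0447) with overlapping samples, Ccna2 by -0.91 ± 0.25 (adjusted p 0.048) and Birc5 by -0.77 ± 0.21 (adjusted p 0.048). Cdk1, in contrast, differed by -0.13 ± 0.36 (adjusted p 0.907) and Top2a by -0.66 ± 0.26 (adjusted p 0.172).

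The remaining 8 mitosis genes were lower on average with metformin and did not pass the test. Kif11 differed by -0.82 ± 0.29 (adjusted p 0.123), Cdc20 by -0.74 ± 0.27 (adjusted p 0.133) and Cenpe by -0.61 ± 0.37 (adjusted p 0.419). Kif20a differed by -0.58 ± 0.26 (adjusted p 0.233), Aurka by -0.46 ± 0.29 (adjusted p 0.454) and Prc1 by -0.43 ± 0.24 (adjusted p 0.359). Bub1 and Cenpf differed by -0.38 ± 0.44 and -0.32 ± 0.29, with adjusted p of 0.726 and 0.632.

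In the G1/S list Pcna and Ccne2 fell with metformin. Pcna changed by -0.73 ± 0.19 (1.66-fold, adjusted p 0.0332), with sample 3 of the metformin group, at 12.57, inside the wild type range of 12.49 to 12.69. Ccne2 changed by -0.73 ± 0.20 (1.65-fold, adjusted p 0.0447), and its 3 metformin samples, 5.41, 5.42 and 5.31, were close together and below all losartan and vehicle samples. E2f1 went the other way in level, with metformin samples at 4.41, 4.51 and 4.29 against 3.69, 4.07 and 4.32 with vehicle, a difference of 0.38 ± 0.18 that was not called (adjusted p 0.273). Uhrf1 differed by -0.70 ± 0.23 (adjusted p 0.0945) without overlap, Rrm2 by -0.54 ± 0.32 (adjusted p 0.408) and Rrm1 by -0.51 ± 0.26 (adjusted p 0.309). The 8 licensing and helicase genes lay between -0.44 (Mcm3, adjusted p 0.321) and 0.25 (Gins2, adjusted p 0.592).

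Metformin sample 3 was the lowest of its group in 17 of 21 mitosis and 14 of 16 G1/S genes. Without it 1 mitosis gene and no G1/S gene were called against vehicle, with list medians of -0.61 and -0.07. The mitosis gene that was then called was Mki67, at -1.05 (adjusted p 0.0232). Without Alport vehicle sample 1 the counts were again 1 and 0. Over all probe sets 266 were called without metformin sample 3 and 347 without Alport vehicle sample 1, against 1096 with all samples. Mitosis counts of 6 or 7 came without Alport vehicle sample 2 (6), and without wild type sample 2 or 3, losartan sample 2 or 3 or metformin sample 2 (7 each). The G1/S count was 0 without Alport vehicle sample 3 or metformin sample 2, and 1 without wild type sample 3, any 1 losartan sample or metformin sample 1. None of the 13 calls held under every alternative of processing and sample choice that was run, but they differed in how often they were lost. Of 20 alternatives (19 for Tpx2), Mki67 was lost in 1, the fit of only these groups (adjusted p 0.0501). Nusap1 was lost in 2, Ccnb2 and Aurkb in 3, and Bub1b and Tpx2 in 5. Kif23 and Pcna were lost in 8, Plk1 in 12, Ube2c in 13, Ccne2 in 15, and Ccna2 and Birc5 in 16.

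**Figure D3:**
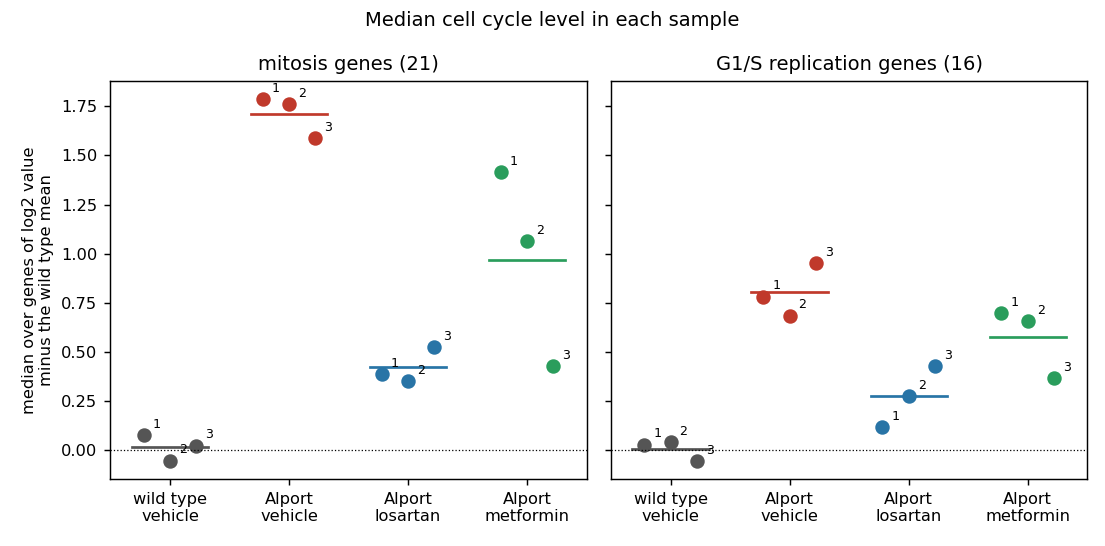
Median over the genes of each list of the log2 value minus the gene's wild type mean, 1 point a sample with its number and a line at each group's mean. In the mitosis list the Alport vehicle samples sit at 1.59 to 1.79, losartan samples at 0.35 to 0.52 and metformin samples at 1.42, 1.06 and 0.43, while in the G1/S list the metformin samples sit at 0.70, 0.66 and 0.37.

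The direct comparison of the drugs called no member. Over all probe sets 0.045% were called with limma (0.018% higher, 0.027% lower), and at an unadjusted p under 0.05 the counts were 10 of 21 mitosis and 4 of 16 G1/S genes, against 8.37% of all probe sets. The mean was higher with metformin than with losartan in 20 mitosis and 14 G1/S genes, with list medians of 0.47 and 0.30. All 3 metformin samples were above the losartan samples in Ccnb2, Bub1b, Cdc20 and Kif23 and in E2f1 and Mcm5, against 5.77% of all probe sets, and below them in Ccne2, against 7.74%.

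The 95% interval of the difference, before adjustment, lay above 0 for 10 mitosis and 3 G1/S genes and below 0 for 1, Ccne2. Bub1b was higher with metformin by 1.35 ± 0.27, with an interval of 0.78 to 1.92 and an adjusted p of 0.123. E2f1 was higher by 0.90 ± 0.18, with an interval of 0.52 to 1.28 (adjusted p 0.123). The losartan means of Bub1b and E2f1 were below 4.18, so the sizes of their differences are uncertain. For Mki67 the difference was 0.99 ± 0.29, with an interval of 0.39 to 1.60 (adjusted p 0.336), and for Ccnb2 it was 0.90 ± 0.23, with 0.41 to 1.39 (adjusted p 0.26). For Ccne2 it was -0.54 ± 0.20, with -0.95 to -0.12 (adjusted p 0.472). Pcna, in contrast, had means that differed by 0.00 ± 0.19, with an interval of -0.39 to 0.40, which still allows a difference of that size either way. The median width to each side was 0.57 for mitosis and 0.45 for G1/S genes. For a gene with an interval of that width, a smaller log2 difference could not be told from none even before adjustment. The intervals of single genes were narrower or wider than this. After adjustment larger differences were not called either, such as 1.35 for Bub1b and 0.99 for Mki67.

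This count also turned on metformin sample 3. Without it 5 mitosis genes were called as higher with metformin than with losartan, Mki67 at 1.45 (adjusted p 0.00554), Ccnb2 at 1.20 (0.0158), Cdk1 at 1.53 (0.0158), Bub1b at 1.51 (0.0386) and Plk1 at 1.39 (0.0469). No G1/S gene was called, and E2f1 was at 0.96 (adjusted p 0.0581). The list medians were then 0.82 and 0.47. Over all 22206 probe sets 91 were then called, against 10 with all samples kept. Metformin sample 3 was the lowest of its group in each of the 5 mitosis genes, so leaving it out raised their metformin means. The losartan means of Cdk1, Bub1b and E2f1 were below 4.18, so the sizes of their differences are uncertain.

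**Figure D4:**
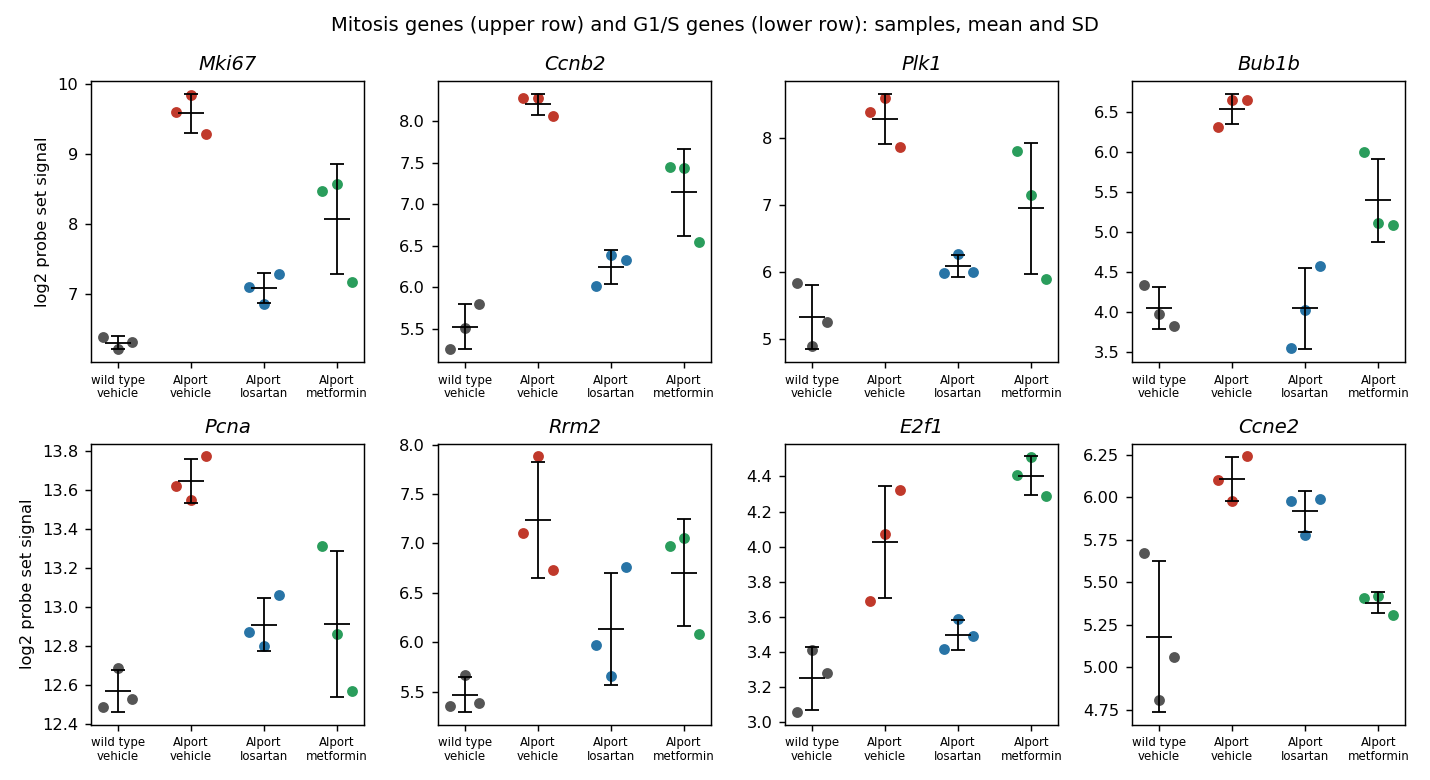
Log2 signals of 4 mitosis genes (upper row) and 4 G1/S genes (lower row) in the 12 samples, with the mean and SD of each group (n = 3); each panel has its own vertical scale, which does not start at 0. Metformin sample 3, the rightmost point of its group, is the lowest metformin value in all panels, while in E2f1 the metformin group has the highest mean and in Ccne2 its 3 points lie within the wild type range.

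Both drug groups were also set against wild type. Under losartan no member was called against wild type, against 0.549% of all probe sets, and 7 mitosis and 4 G1/S genes had an unadjusted p under 0.05 in limma, against 10.7% of all probe sets. The list medians were 0.41 and 0.30, and all 3 losartan samples were above wild type in 10 mitosis and 5 G1/S genes, against 8.4% of all probe sets. Mki67 was at 0.78 ± 0.29 (adjusted p 0.294), Ccne2 at 0.74 ± 0.20 (adjusted p 0.125) and Mcm4 at 0.77 ± 0.34 (adjusted p 0.412). Without wild type sample 1 the G1/S count was 1.

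Under metformin 10 mitosis and 3 G1/S genes were higher than in wild type, against 4.18% of all probe sets called (2.7% higher, 1.48% lower), with list medians of 0.99 and 0.43. All 3 metformin samples were above wild type in 13 mitosis and 9 G1/S genes, against 10.6% of all probe sets. The mitosis genes were Ccnb2 at 1.62 ± 0.23 (3.07-fold, adjusted p 0.000933), Mki67 at 1.77 ± 0.29 (3.42-fold, adjusted p 0.00235), Kif23, Kif20a, Bub1b, Ccna2, Plk1, Top2a, Prc1 and Cdk1, with changes of 0.95 to 1.77. The G1/S genes were E2f1 at 1.15 ± 0.18 (adjusted p 0.00171), Rrm2 at 1.23 ± 0.32 (adjusted p 0.039) and Mcm6 at 0.63 ± 0.16 (adjusted p 0.0311). The mitosis count was 4 without wild type sample 3 or metformin sample 1 and 5 without metformin sample 2. The G1/S count was 1 without wild type sample 1 or 3 or metformin sample 1 or 2, and 5 without metformin sample 3. Losartan and metformin groups share the wild type samples here, and the difference between the 2 counts was not tested beyond the direct comparison above.

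Other cell cycle genes, taken from lists that do not hold the members, were tested in the same fit. Of 36 other mitosis genes 20 rose in Alport kidney and 10 fell with losartan, and none was called with metformin, with medians of 0.86, -0.52 and -0.26. Over all probe sets 8.43% were called higher in Alport kidney, 4.11% lower with losartan and 2.27% lower with metformin, and the counts of the other lists below are read against the same shares. Pbk, a mitotic kinase, rose by 2.82 ± 0.36 (adjusted p 6.11e-05), with wild type samples at 5.13, 4.36 and 5.48 and Alport vehicle samples at 8.02, 7.81 and 7.59. It changed by -1.73 ± 0.36 with losartan (adjusted p 0.00824). Racgap1, the partner of Kif23 in the central spindle, rose by 1.97 ± 0.25 (adjusted p 6.23e-05) and changed by -1.46 ± 0.25 with losartan (adjusted p 0.00277). Mad2l1, a checkpoint protein, rose by 1.63 ± 0.23 (adjusted p 0.000144), and Cdca3, a mitotic entry factor, by 1.88 ± 0.27 (adjusted p 0.000161).

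Of 28 other replication genes measured 2 rose in Alport kidney, 1 fell with losartan and none was called with metformin, with medians of 0.24, -0.26 and -0.06. These counts are near the shares of all probe sets, 8.43%, 4.11% and 2.27%, and say nothing of the list. The genes called were Chaf1b, a chromatin assembly subunit, at 1.08 ± 0.25 (adjusted p 0.0065) and -0.93 ± 0.25 with losartan (adjusted p 0.0317), and Pola1, the catalytic subunit of DNA polymerase alpha, at 0.84 ± 0.22 (adjusted p 0.0131). Pola1 was dim in the wild type samples, at 3.48, 3.79 and 3.40, so the size of its change is uncertain. Of 17 genes of the Rb, E2F and DREAM families 2 rose, E2f8, a repressor of the E2F family, at 1.52 ± 0.28 (adjusted p 0.0012), and Tfdp1, the dimer partner of E2F, at 0.71 ± 0.15 (adjusted p 0.00351). E2f8 changed by -1.27 ± 0.28 with losartan (adjusted p 0.0108), where it was the 1 gene of the 17 called, and none was called with metformin. Of 6 G1 kinases and D cyclins 2 rose, Ccnd2 at 0.80 ± 0.19 (adjusted p 0.00886) and Cdk6 at 0.84 ± 0.23 (adjusted p 0.0205), and none was called with either drug. With so few genes called in lists of 17 and 6, against 8.43% of all probe sets called higher, only the values of the named genes are given.

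Among 7 CDK inhibitors Cdkn1a, which encodes p21 and holds cells in arrest, was the gene that was called, against 8.43% of all probe sets called higher. It rose by 2.44 ± 0.40 in Alport kidney (adjusted p 0.000501), from 7.36, 6.90 and 6.86 to 9.90, 8.94 and 9.60. It changed by -1.47 ± 0.40 with losartan (adjusted p 0.0335) and differed by -1.18 ± 0.40 with metformin (adjusted p 0.108). Metformin sample 3, at 7.36, was again the lowest of its group, below 8.89 and 8.65 in samples 1 and 2.

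Whole kidney holds many cell types, and the markers of some of them moved with the cell cycle genes. In these bulk samples more cycling cells and more RNA per cycling cell cannot be told apart, nor can fewer cells of a type and less RNA per cell. The shares of all probe sets called were 8.43% higher and 7.71% lower in Alport against wild type, 3.79% higher and 4.11% lower with losartan, and 2.67% higher and 2.27% lower with metformin. Of 9 macrophage markers 8 rose in Alport kidney, 6 fell with losartan and 1 with metformin. Their summed linear signal was 1906 to 1948 in wild type, 7107 to 25347 in Alport vehicle, 3217.5 to 4019.6 with losartan and 4060.3 to 10133 with metformin, where sample 3 was the lowest. Of 5 injured tubule markers 5 rose, 4 fell with losartan and 1 with metformin, with sums of 362 to 412, 36117 to 107720, 8609.5 to 56713 and 14305 to 62907, again lowest in metformin sample 3. Of 7 fibroblast and myofibroblast markers 7 rose and 7 fell with each drug, with sums of 4353 to 5973, 54176 to 77737, 15668 to 20353 and 14867 to 25463. Each sum is weighted to its brightest markers, for example Lyz2 (13.09 in Alport vehicle sample 1) and Lcn2 (15.55 in losartan sample 1). The sums do not weigh the markers of a list equally. Of 9 T and NK cell markers 3 rose, 2 fell with losartan and none was called with metformin, and of 6 B and plasma cell markers 1 rose and 1 fell with each drug. All 6 proximal tubule markers fell in Alport kidney, 4 rose with losartan and 2 with metformin. In Alport against wild type kidney 1 of 6 endothelial markers rose and 1 fell, 1 of 4 podocyte markers rose, 1 of 5 distal nephron markers rose and 1 fell, and 1 of 4 erythroid markers fell. With losartan 1 endothelial marker rose, with metformin 1 endothelial and 1 podocyte marker fell, and no other marker of these 4 lists was called with either drug. No marker of any list was dim in all 12 samples, but some were dim in many. Mzb1 was dim in 11, Cd3g and Cd79b in 7, and Ms4a1 and Krt20 in 6. Krt20, among the injured tubule markers that rose, was dim in all 3 wild type samples, at 3.17, 3.78 and 3.84. The part of these cell types in the cell cycle results was not tested.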

How the data were processed

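Total RNA of 12 whole kidney samples was hybridised to Affymetrix Clariom S arrays, per the labels' protocols. The authors deposited log2 values for 22206 probe sets, and the submitters' processing notes name Transcriptome Analysis Console 4.0. How the background was corrected and how arrays were normalized and summarised is not given in the sources used here. Scanner files were not used here. The number of samples limits the precision. Gene names came from the platform annotation, updated by Entrez identifier to RefSeq symbols for 19572 of them, and 2634 stayed unnamed.

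The deposited values were used as they are, with no filter. limma 3.58.1 in R 4.3.3 fitted a mean for each of the 4 groups (8 residual degrees of freedom), with empirical Bayes variances and Benjamini-Hochberg adjustment over all probe sets in each comparison. The median standard error was 0.20, and a gene was called at an adjusted p under 0.05. The fit was tested on simulated data. A change is the difference of 2 group means on the log2 scale, with a moderated variance, and a fold is its linear size.

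Alternatives were centring each sample, quantile normalization, a filter on dim probe sets, other variance settings, weights for arrays, a fit restricted to the groups under comparison, a threshold on unadjusted p with 2-fold, the replicate number as a block, and leaving out each sample. Full sample values were given for a fixed set of members, for the 4 with the smallest p in each list, and for members that were not called, and here also for the other members. The members, the lists and these rules were chosen with earlier results of these data known. Samples with the same number did not deviate together (correlations of -0.14 to 0.08 in 18 pairs), so the number was not taken as a pairing.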

Additional observations from a re-analysis of the deposited data

How the results depend on the processing

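For the 37 members, no called change turned its direction under an alternative that gave it a value (19 or 20 for each). Only centring, quantile normalization, array weights and leaving out a sample of a compared group could move a log2 change. The others, such as the fit of only the groups compared, altered the test alone and could not turn a direction. Among member results uncalled in both the main fit and the alternative, 70 of 2846 had another sign. Genes of the other lists and cell type markers were not run under the alternatives. For Alport against wild type, the count of called members ranged over single left-out samples from 17 to 20 mitosis and from 8 to 10 G1/S genes. Its G1/S count was 6 at an unadjusted p under 0.05 with 2-fold, which no smaller change can pass. For losartan against vehicle the ranges were 13 to 18 and 0 to 5, and the G1/S count was 2 with each sample centred on its median, 2 in a fit of only the groups compared, 1 at the unadjusted threshold and 2 with the replicate number as a block. For metformin against vehicle the ranges were 1 to 11 and 0 to 2. Its mitosis count was 7 with centring, 7 with array weights, 2 with only the groups compared and 7 at the unadjusted threshold. Its G1/S count was 1 with centring, 1 with quantile normalization, 1 with a trended and robust variance prior, 0 with array weights, 0 with only the groups compared, 0 at the unadjusted threshold and 1 with the block. For metformin against losartan the ranges were 0 to 5 and 0 to 0, with 1 mitosis gene at the unadjusted threshold. For losartan against wild type they were 0 to 0 and 0 to 1, with 1 mitosis gene in the fit of only those groups. For metformin against wild type they were 4 to 13 and 1 to 5, with 5 G1/S genes under array weights. The cause of these moves was not tested.

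Over all probe sets the counts under single left-out samples were 2549 to 3756, 716 to 2073, 266 to 1320, 5 to 91, 37 to 191 and 346 to 1065 for the 6 comparisons in the order above. At the unadjusted threshold with 2-fold they were 1565, 799, 511, 102, 239 and 542. The fit of only the groups compared gave 410 for metformin against vehicle, 3 for metformin against losartan and 285 for losartan against wild type, and array weights gave 17 and 195 for the last 2 of these. Centring moved the median change of all probe sets to -0.17 for Alport against wild type, where 1451 were then higher and 2842 lower against 1871 and 1711 as deposited. For losartan against vehicle 1238 were higher and 724 lower against 842 and 913, and for metformin against vehicle 827 and 381 against 592 and 504. The mitosis medians with centring were 1.55, -1.23 and -0.70, and the G1/S medians 0.71, -0.39 and -0.09. Calls that held under every alternative run numbered 22 of 30 for Alport against wild type, 12 of 20 for losartan, 0 of 13 for metformin against vehicle and 5 of 13 for metformin against wild type. A call of under 2-fold could not hold under every alternative, because 1 of them asked for at least 2-fold. In Alport against wild type, Mcm6, Ccne2 and E2f1 were lost under that alternative alone. Samples sharing a number did not deviate together, and the block changed the member counts by over 1.5 times only as stated. A choice among several probe sets of a gene was not run, because each member had 1. Genes at dim levels and 3 samples a group limit what these arrays can resolve.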
